A study of Homo sapiens with 6 samples.

Results

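The MYC, MAX and MXD network is a set of 10 genes for transcription factors that pair with each other and compete for the same DNA. The rows were picked by Ensembl gene identifier, without its version, from the HGNC symbols MYC, MYCL, MYCN, MAX, MXI1, MXD1, MXD3, MXD4, MNT and MGA, and all 10 were found among the 60668 genes of the deposited table. The RNA came from MiaPaCa-2, an established human pancreatic carcinoma line, kept for 48 h in medium with 2.5 mM glucose (low glucose, 3 libraries) or in control medium with 25 mM glucose (3 libraries), and no other agent or genetic change separates the groups. The design text gives the samples as independent biological replicates, and the comparison asks which transcripts of the network differ when glucose is scarce.

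MYC binds DNA only as a pair with MAX, and the pair activates genes through the E-box, the sequence CACGTG. The MXD proteins and MNT also pair with MAX on the E-box, but they recruit the SIN3 corepressor with its histone deacetylases and repress the same genes, while MGA pairs with MAX inside a Polycomb complex. MAX is therefore the shared partner for which activators and antagonists compete. In many tumors, pancreatic carcinoma included, MYC drives ribosome production, nucleotide synthesis and glycolysis, and MXD genes are known for rising as cells stop dividing or differentiate.

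The control libraries held 9741183 to 10190154 reads on genes and the low-glucose libraries 10595408 to 13733477. In what follows, the values of a condition are listed by rising depth, and each library is named by its reads. Values are normalized counts, that is, reads divided by a size factor for the library, so a fold change is relative to the bulk of the transcripts and says nothing of the total RNA of a cell. In bulk RNA, fewer cells with a transcript and less of it per cell cannot be told apart. The label of a carcinoma line was checked against marker genes. The epithelial keratins KRT8 and KRT18 and the mesenchymal filament VIM were abundant (at least 13896 reads each in every library), and 8 markers of immune, fibroblast and endothelial cells summed to between 9 and 21 reads in a control library and between 12 and 15 in a low-glucose one, with 3 of the 8 markers at 0 throughout. The line's own markers differed between the conditions: KRT8 (log2 fold change -1.01, limma adjusted p = 3.26e-06) and KRT18 (-0.74, limma adjusted p = 4.29e-05) fell, and VIM rose (0.42, limma adjusted p = 0.00819). The VIM call was lost when the control library of 9741183 reads, or either low-glucose library of 10595408 or 10841656 reads, was left out (highest adjusted p 0.0764). It was also lost with quantile normalization (log2 fold change 0.21, adjusted p = 0.206). The part of these shifts in the results was not tested.

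Of the 10 genes, 9 had a mean of at least 1 normalized count and were tested. MYC, MYCL, MXD1, MXI1 and MNT rose in low glucose and MGA fell, while MAX, MXD3 and MXD4 did not pass the test (limma on log2(value + 1), two-sided, Benjamini-Hochberg adjusted p under 0.05 over all 21101 genes tested). Thus 6 of 9 members were called, against 30.9% of all genes. The 5 higher members stand against 14.7% of all genes called higher, and the 1 lower member against 16.2% called lower. The conditions did not overlap for 7 of the 9 members, against 43.9% of all genes. The median log2 fold change was 0.45 over the tested members and 0.05 over all genes. Among the 10149 tested genes that averaged 100 normalized counts or more, 18.0% were higher, 30.0% were lower and the median was -0.08.

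**Figure D1:**
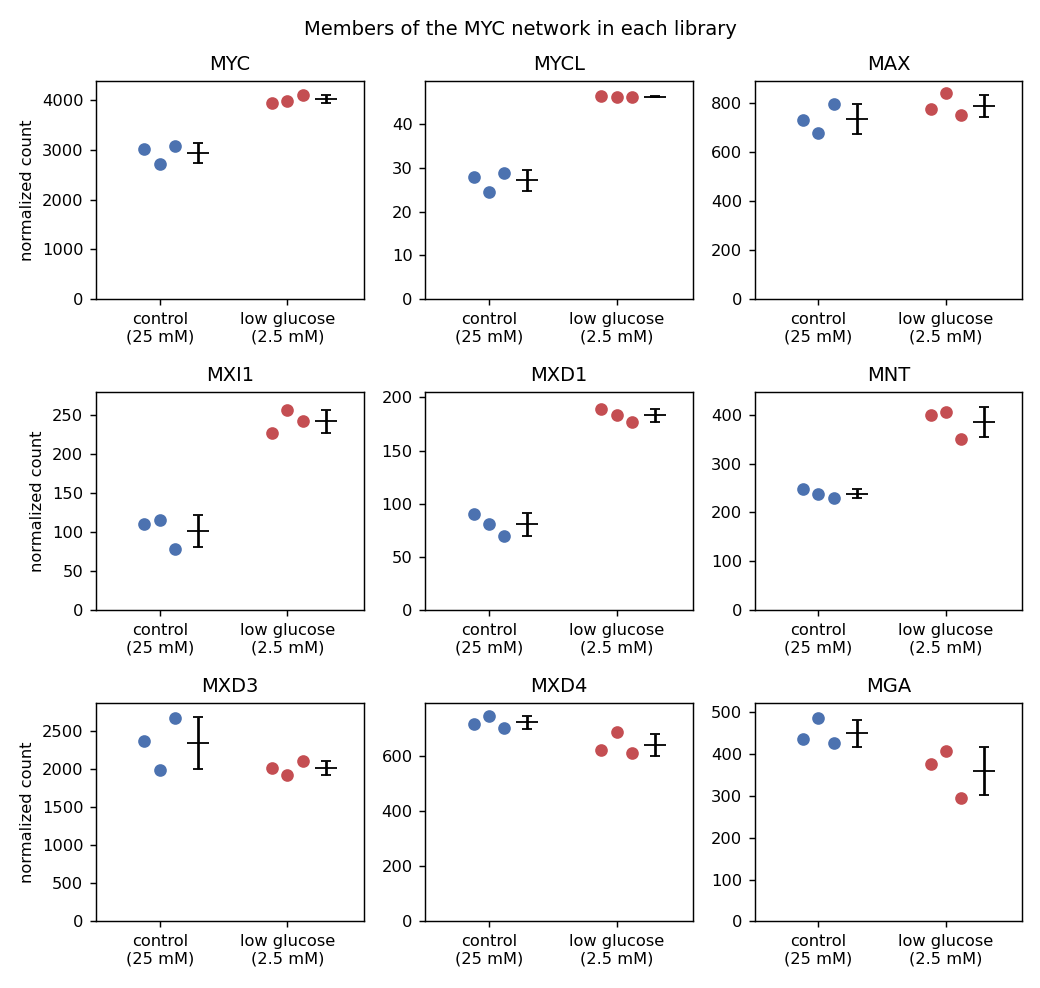
Normalized count of each detected member (vertical axes, from 0) in the 3 control libraries (blue) and the 3 low-glucose libraries (red), ordered by depth within a condition, with the mean and SD in black. MYC, MYCL, MXI1, MXD1 and MNT sit higher in every low-glucose library, MXD4 and MGA sit lower, and the conditions overlap for MAX and MXD3.

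MYC itself (ENSG00000136997.19, chr8:127735434-127742951, plus strand, hg38) was the most abundant member by reads. Its normalized counts were 3027, 2720 and 3080 in control and 3952, 3995 and 4108 in low glucose, from 2440 to 5422 reads per library. The lowest low-glucose library thus lay above the highest control library. The mean went from 2942 ± 195 to 4019 ± 80.6 (SD, n = 3 each), 1.37-fold, with a log2 fold change of 0.45 (SE 0.0755, 95% CI 0.29 to 0.61, limma adjusted p = 0.000397). With any library left out, the log2 fold change of MYC ran from 0.40 to 0.49 and the adjusted p reached 0.00691 at most.

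RNAs encoded beside MYC were also measured. CASC11, a long noncoding RNA on the other strand that shares 194 exonic bases with MYC, rose from 674 ± 86.4 to 1009 ± 85.7 (log2 fold change 0.59, SE 0.102, limma adjusted p = 0.00052). PVT1, the long noncoding RNA just downstream of MYC, went from 315 ± 36.3 to 390 ± 12.3 (log2 fold change 0.32, SE 0.104, limma adjusted p = 0.0317), and this call was lost without any 1 of 5 libraries, all but the control library of 10190154 reads (highest adjusted p 0.120). CASC8, farther upstream, had 19 to 35 reads per library and a log2 fold change of -0.10 (limma adjusted p = 0.817). The strand setting of the counting is not given in the sources used here, so reads of MYC and CASC11 in the shared bases cannot be told apart, and the part of CASC11 in the MYC value was not tested.

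MYCL and MYCN are paralogs of MYC that pair with MAX in the same way and are best known from lung cancer and neuroblastoma. MYCL (ENSG00000116990.11, chr1:39895428-39902256, minus strand) was at a low level, with normalized counts of 28.0, 24.5 and 28.9 in control and 46.4, 46.2 and 46.2 in low glucose. Those values rest on 22 to 27 and 47 to 61 reads. The low-glucose libraries lay above all control libraries, and the log2 fold change was 0.75 (SE 0.222, limma adjusted p = 0.0186). The call did not survive the loss of a low-glucose library: the adjusted p was 0.0653 without that of 10595408 reads, 0.0648 without that of 10841656 reads and 0.0602 without that of 13733477 reads. It was also lost with DESeq2 (adjusted p = 0.0635) and quantile normalization (adjusted p = 0.108). MYCL-AS1, a noncoding RNA on the other strand, shares 226 exonic bases with MYCL. It had 3 to 13 reads per library (log2 fold change 0.21, limma adjusted p = 0.788). MYCN (ENSG00000134323.12, chr2:15940550-15947007, plus strand) and its neighbors MYCNOS and MYCNUT had 0 reads in all 6 libraries, and a count of 0 allows up to 3 reads per library.

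MAX (ENSG00000125952.20, chr14:65006174-65102695, minus strand), the partner of all other members, differed by less than the libraries spread. Its normalized counts were 733, 679 and 799 in control and 776, 841 and 754 in low glucose, and the conditions overlapped. The log2 fold change was 0.10 (SE 0.0872, 95% CI -0.08 to 0.29, limma adjusted p = 0.413), and the interval of MAX includes 0. FNTB, which shares 822 exonic bases with MAX on the other strand, had 41 to 75 reads per library and a log2 fold change of 0.00. The noncoding RNA ENSG00000259118, also on the other strand, shares 184 exonic bases with MAX. It had 150 to 311 reads per library (log2 fold change 0.24, limma adjusted p = 0.147), and its part in the MAX value was not tested.

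The MXD family split. MXD1, also called MAD, and MXI1 are the family members best known for antagonizing MYC, and both rose more than 2-fold. MXD1 (ENSG00000059728.11, chr2:69897688-69942945, plus strand) had normalized counts of 90.8, 81.4 and 69.5 in control and 189, 184 and 177 in low glucose. Its mean rose from 80.6 ± 10.7 to 183 ± 6.10, 2.27-fold, with a log2 fold change of 1.18 (SE 0.141, 95% CI 0.88 to 1.48, limma adjusted p = 2.36e-05).

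MXI1 (ENSG00000119950.21, chr10:110207605-110287365, plus strand) had normalized counts of 111, 116 and 78.1 in control and 227, 257 and 242 in low glucose. The mean rose from 102 ± 20.6 to 242 ± 14.8, 2.38-fold, and the log2 fold change was 1.26 (SE 0.152, 95% CI 0.94 to 1.59, limma adjusted p = 2.42e-05). For MXD1 and MXI1 alike, the lowest low-glucose value was well above the highest control value. The calls of both held in every alternative run, with a highest adjusted p of 0.00766 for MXD1 and 0.0125 for MXI1. MXD1 shares 237 exonic bases with SNRNP27 on the same strand, whose log2 fold change was -0.17 (limma adjusted p = 0.353). The noncoding RNA that overlaps MXI1 had at most 3 reads per library.

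MXD3, the family member known for being expressed in dividing cells, and MXD4 did not rise. MXD3 (ENSG00000213347.10, chr5:177301461-177312757, minus strand) had normalized counts of 2371, 1982 and 2674 in control and 2017, 1926 and 2105 in low glucose. The conditions overlapped, since the control library of 10126218 reads lay among the low-glucose libraries. The log2 fold change was -0.21 (SE 0.0976, 95% CI -0.42 to 0.00, limma adjusted p = 0.126), and without that control library it was -0.32 (adjusted p = 0.000248). With quantile normalization it was 0.01 (adjusted p = 0.947). MXD3 shares 1148 exonic bases with PRELID1 on the other strand, which was more abundant (2807 to 3865 reads) and fell (log2 fold change -0.38, limma adjusted p = 0.00362), and 926 with RAB24 on the same strand, which rose (log2 fold change 0.59, limma adjusted p = 0.0309). Their part in the MXD3 value was not tested.

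MXD4 (ENSG00000123933.17, chr4:2247432-2262109, minus strand) had normalized counts of 715, 745 and 701 in control and 621, 685 and 608 in low glucose. All 3 low-glucose values lay below the control values, but the log2 fold change of -0.18 (SE 0.083, 95% CI -0.35 to 0.00) did not pass the test (limma adjusted p = 0.126) and passed in none of the alternatives run (adjusted p 0.0907 to 0.534).

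MNT, the broadly expressed MAX partner that represses MYC targets in resting cells, rose. MNT (ENSG00000070444.15, chr17:2384073-2401104, minus strand) had normalized counts of 248, 239 and 229 in control and 400, 405 and 350 in low glucose, with no overlap. The mean rose from 238 ± 9.39 to 385 ± 30.4, 1.62-fold (log2 fold change 0.69, SE 0.101, 95% CI 0.47 to 0.90, limma adjusted p = 0.000135), and the call held in every alternative run (highest adjusted p 0.0136). A noncoding RNA on the other strand, ENSG00000262456, shares 1065 exonic bases with MNT. Its reads lay between 43 and 66 per control library and between 79 and 130 per low-glucose library (log2 fold change 0.65, limma adjusted p = 0.0184), and its part in the MNT value was not tested.

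MGA, the largest member and the only one with a T-box besides its MAX-binding region, fell. MGA (ENSG00000174197.16, chr15:41621134-41773081, plus strand) had normalized counts of 435, 487 and 427 in control and 375, 407 and 296 in low glucose. The conditions did not overlap, with the lowest value in the low-glucose library of 13733477 reads. The mean fell from 450 ± 32.7 to 359 ± 57.4 (log2 fold change -0.33, SE 0.117, 95% CI -0.58 to -0.08, limma adjusted p = 0.0424). The call of MGA was lost without the low-glucose library of 13733477 reads (log2 fold change -0.20, adjusted p = 0.232) or that of 10595408 reads (adjusted p = 0.0828), without the control library of 9741183 reads (adjusted p = 0.0900), and in 6 of the other alternatives, DESeq2 and edgeR included. The noncoding RNAs ENSG00000260814 and ENSG00000260926 share exonic bases with MGA on the other strand and had at most 3 reads per library.

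**Figure D2:**
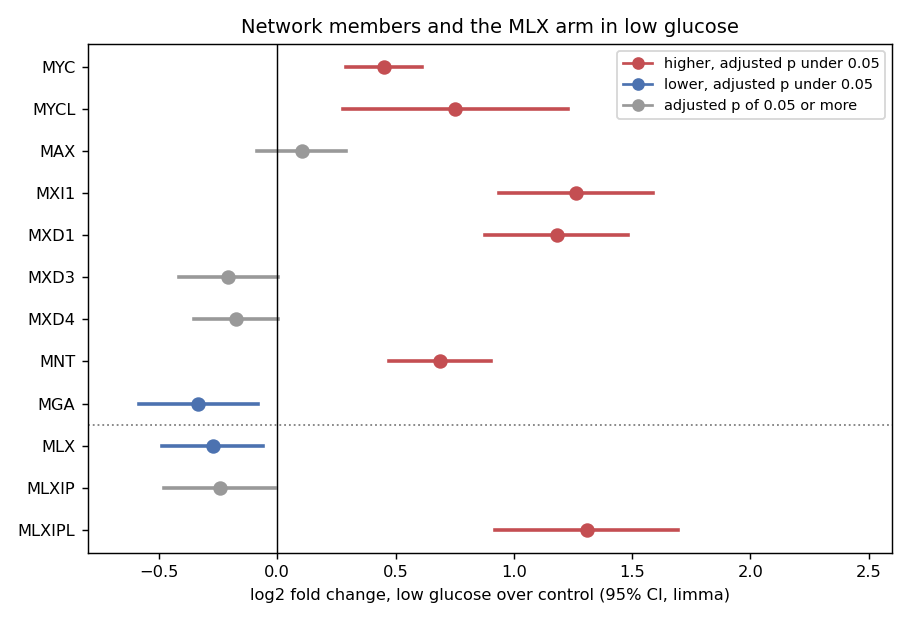
Log2 fold change of low glucose over control with its 95% confidence interval from limma (horizontal axis) for the 9 detected members and, under the dotted line, the 3 genes of the related MLX arm. MXI1 (1.26), MXD1 (1.18) and MLXIPL (1.31) lie farthest to the right, MYC (0.45) and MNT (0.69) also lie clear of 0, and the intervals of MAX, MXD3 and MXD4 reach 0.

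The E-box was looked for in promoter windows of 300 bases (250 before and 50 after each annotated start, RefSeq, GRCh38.p14). CACGTG reads the same on both strands. It was in 7.26% of 35116 windows, and in 2 of the 14 windows that belong to the 9 members with an entry. Those are MXD4 and MNT, shown here with part of the window in lower case and the E-box in capitals. They are set beside EIF4E and LDHA, 2 genes activated by MYC that each hold 2 E-boxes. These 2 were chosen after their values were seen, and only from activated genes called lower. EIF4E encodes the cap-binding translation factor and LDHA a subunit of lactate dehydrogenase.
MNT (chr17:2401221-2401280, minus strand): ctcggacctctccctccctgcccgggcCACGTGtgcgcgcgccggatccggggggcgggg
MXD4 (chr4:2262315-2262359, minus strand): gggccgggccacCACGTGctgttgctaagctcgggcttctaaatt
EIF4E, distal (chr4:98929326-98929383, minus strand): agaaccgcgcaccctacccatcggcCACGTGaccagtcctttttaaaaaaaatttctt
EIF4E, proximal (chr4:98929173-98929232, minus strand): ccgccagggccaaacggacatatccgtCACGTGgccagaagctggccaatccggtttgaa
LDHA, distal (chr11:18394351-18394410, plus strand): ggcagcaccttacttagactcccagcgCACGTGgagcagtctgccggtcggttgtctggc
LDHA, proximal (chr11:18394449-18394508, plus strand): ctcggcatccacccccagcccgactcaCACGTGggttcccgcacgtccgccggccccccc

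The E-boxes of MNT and MXD4 begin 193 and 238 bases before the start, those of EIF4E at 225 and 72 and those of LDHA at 185 and 87. These 4 genes did not share a direction: MNT rose (log2 fold change 0.69), EIF4E (-0.76, limma adjusted p = 3.05e-05) and LDHA (-0.40, limma adjusted p = 0.00107) fell, and MXD4 had -0.18 without passing the test. MXD1 and MXI1, which rose most among the members, had no CACGTG in the 1 and 3 windows they have. A match of letters is a description of the window, not of a bound site.

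Reads per length were used to compare levels between members. On this scale (TPM, reads per base of the canonical transcript scaled to the same sum in each library), MXD3 had the highest level in control, 398 ± 48.4, followed by MYC at 144 ± 7.01, MAX at 66.5 ± 3.59 and MXD4 at 33.8 ± 1.96. MNT (8.80), MGA (6.71), MXI1 (5.34), MXD1 (2.64) and MYCL (1.40) were each under 10 TPM. In low glucose MYC reached 191 ± 5.96 TPM, MXI1 12.4, MNT 13.9 and MXD1 5.85, while MXD3 was at 335 ± 17.6. The ranges of MNT (8.17 to 9.24) and MGA (6.15 to 7.42) did not meet in control, while MGA and MXI1 (3.95 to 6.20) did. MXI1 (11.5 to 13.1) and MNT (12.8 to 14.5) met in low glucose. The place of MXD3 rests on the length used, since its canonical transcript has 1067 bases and its merged exons 4743. Over merged exons it had 149 ± 21.9 TPM in control, level with MYC at 145 ± 10.4, and 123 ± 5.96 in low glucose, under MYC at 190 ± 5.74.

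By canonical length, the summed level of the network was alike in both conditions, 606 to 709 TPM in control and 654 to 685 in low glucose, while its make-up differed. MYC made up 20.5 to 22.4% of the sum in control and 28.5 to 28.9% in low glucose. MXD3 made up 56.9 to 62.1% and then 48.7 to 51.7%. Its levels, shares and ratios take in any part that the overlapping PRELID1 and RAB24 have in its value, which was not tested. Per 100 TPM of MYC there were 44.8 to 48.0 TPM of MAX in control and 34.0 to 39.0 in low glucose. These values rest on the length used. The sum by merged exons was 350 to 410 TPM in control (mean 387) and 408 to 425 in low glucose (mean 417). Over merged exons the mean share of MYC was larger, 37.6% and then 45.6%, that of MXD3 was smaller, 35.7 to 41.0% and then 28.1 to 30.4%, and MAX stood at 23.6 to 25.3 TPM per 100 TPM of MYC and then 17.9 to 20.5, with the direction of each as before.

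Antagonists stood to MYC in opposite ways. MXD1 and MXI1 together came to 5.94, 6.58 and 4.23 TPM per 100 TPM of MYC in the control libraries and to 9.37, 9.98 and 9.21 in the low-glucose libraries, and the conditions did not overlap. For MXD3 and MXD4 together the control libraries lay between 280 and 325 and the low-glucose libraries between 185 and 193, again without overlap but downward. Over merged exons those ranges were 118 to 132 and 77.3 to 79.7, so on that scale both genes together were above MYC in control and below it in low glucose. For MNT the ranges were 5.62 to 6.63 and 6.44 to 7.66, which overlapped. These shares and ratios are descriptions of RNA per library and were not tested.

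**Figure D3:**
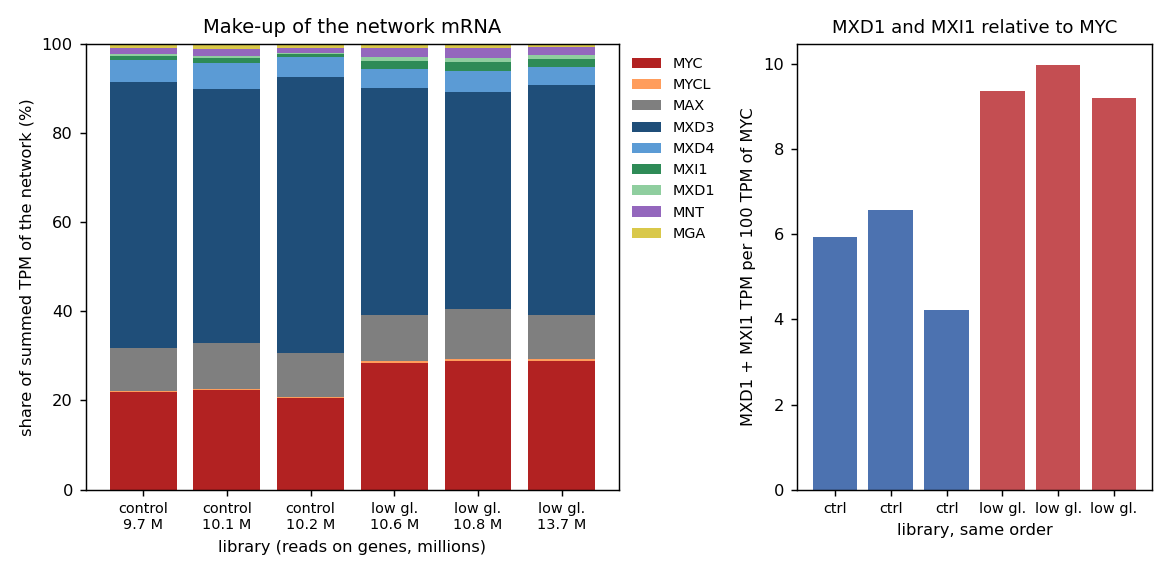
Left, share of each member in the summed TPM of the network (vertical axis, percent, canonical transcript length) in each library, ordered by depth within control and low glucose (gl.), with reads on genes under each bar. Right, TPM of MXD1 and MXI1 together per 100 TPM of MYC in the same libraries, with control between 4.23 and 6.58 and low glucose between 9.21 and 9.98.

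A parallel arm of the network uses MLX in place of MAX, and its partners MLXIP (MondoA) and MLXIPL (ChREBP) sense glucose-derived sugar phosphates, which ties it to the treatment. MLXIPL, the ChREBP gene, rose: its normalized counts were 61.7, 70.2 and 105 in control and 215, 184 and 178 in low glucose, without overlap (log2 fold change 1.31, SE 0.181, limma adjusted p = 8.61e-05). MLX, which can also pair with MXD1, MXD4 and MNT, fell from 768 ± 78.8 to 635 ± 61.8 with overlapping conditions (log2 fold change -0.27, limma adjusted p = 0.0491). That call was lost without any library but the control library of 10126218 reads (highest adjusted p 0.235) and in 8 other alternatives. MLXIP had 1013 ± 193 and 845 ± 8.92 (log2 fold change -0.24, limma adjusted p = 0.107), and it passed without the control library of 10190154 reads (adjusted p = 0.00806).

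Transcripts of the corepressor that MXD proteins and MNT recruit were mostly lower or did not pass. Of 15 genes of the SIN3 complex, 8 fell (53.3%, against 16.2% of all genes and 30.0% of those that averaged 100 or more) and 1 rose, with a median log2 fold change of -0.33. BRMS1, a subunit of the complex, fell from 799 ± 16.5 to 551 ± 8.13 (log2 fold change -0.53, limma adjusted p = 0.000134), and the subunit SAP30 fell from 213 ± 13.6 to 153 ± 11.01 (-0.47, limma adjusted p = 0.00729). SUDS3 was the 1 gene that rose, from 330 ± 16.5 to 449 ± 32.8 (0.44, limma adjusted p = 0.00256). The paralogs RBBP4 (-0.35, limma adjusted p = 0.00262) and RBBP7 (-0.39, limma adjusted p = 0.0016) both fell. Both calls were lost with quantile normalization (adjusted p = 0.227 and 0.0682). The pair of scaffolds and the pair of deacetylases each had 1 gene called lower and 1 that did not pass. Of the scaffolds, SIN3A fell (-0.33, limma adjusted p = 0.0236) and SIN3B had -0.06 (limma adjusted p = 0.621). Of the deacetylases, HDAC2 fell (-0.33, limma adjusted p = 0.00371) and HDAC1 had -0.05 (limma adjusted p = 0.618). The SIN3A call was lost when any library but the control ones of 10126218 and 10190154 reads was left out (highest adjusted p 0.0986). It was also lost with library size scaling (adjusted p = 0.0661), quantile normalization (0.0863) and no variance trend (0.141). The HDAC2 call was lost with quantile normalization (log2 fold change -0.11, adjusted p = 0.288) and without a variance trend (adjusted p = 0.0543). When the low-glucose library of 10595408 reads was left out, 5 genes counted as lower, and likewise 5 when that of 13733477 reads was.

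MGA works within PRC1.6, a Polycomb complex that silences germline genes. Of 10 other subunits, 3 fell (30.0%, against 16.2% of all genes and the same 30.0% of those that averaged 100 or more) and 0 were called higher by limma (2 at an unadjusted p under 0.05, 0 with DESeq2), with a median log2 fold change of -0.14, against 0.05 over all genes. L3MBTL2, which reads histone marks, fell from 608 ± 4.20 to 394 ± 24.6 (-0.63, limma adjusted p = 8.4e-05). TFDP1, the dimer partner of E2F factors, fell from 2101 to 1396 (-0.59, limma adjusted p = 4.17e-05), and WDR5, a histone methyltransferase subunit that MYC also binds, fell from 2089 to 1433 (-0.54, limma adjusted p = 7.33e-05). The number of higher genes was 2 without the control library of 10190154 reads, 2 with library size scaling, 1 with edgeR and 1 when limma was run on genes with a mean of 5 or more.

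Transcripts of proteins that work with MYC on chromatin were lower or did not pass. Of 13 such cofactors, 9 fell (69.2%, against 16.2% of all genes and 30.0% of those that averaged 100 or more) and 0 were called higher by limma (0 also at an unadjusted p under 0.05, with DESeq2 and with edgeR), with a median log2 fold change of -0.32. HCFC1, a host cell factor that binds MYC directly, fell from 2433 to 1557 (-0.64, limma adjusted p = 3.61e-05), and RUVBL2, an ATPase of the TIP60 and INO80 complexes, fell from 3539 to 2569.5 (-0.46, limma adjusted p = 0.000165). WDR5 is also on this list. Only 5 genes counted as lower when the control library of 9741183 reads was left out, 5 when the low-glucose library of 10595408 reads was, and 5 with library size scaling, and 1 cofactor counted as higher with quantile normalization.

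Of 14 genes that set the stability of the MYC protein, 8 fell (57.1%, against 16.2% of all genes and 30.0% of the abundant ones) and 1 rose (against 14.7%), with a median log2 fold change of -0.34. SKP2, an F-box subunit of a ubiquitin ligase for MYC, fell from 746 ± 70.8 to 312 ± 6.53 (-1.25, limma adjusted p = 3.29e-07). The mitotic kinases AURKA (2242 ± 59.2 to 970 ± 40.8, log2 fold change -1.21, limma adjusted p = 5.21e-08) and PLK1 (-1.11, limma adjusted p = 1.83e-07), which protect MYC proteins from degradation, fell as well. SKP2, AURKA and PLK1 are also genes of the dividing cell. FBXW7, the F-box protein that marks phosphorylated MYC for degradation, was the 1 gene called higher (0.39, limma adjusted p = 0.0499). This call was lost without any library but the control library of 10126218 reads (highest adjusted p 0.212). It was also lost with DESeq2 (adjusted p = 0.0936), and in limma with quantile normalization (0.0915) and no variance trend (0.153). The same held with no filter (0.0508) and a pseudocount of 0.1 (0.0602). Protein levels were not analysed here.

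Of 8 factors known to act on MYC transcription or its mRNA, 7 were tested, 4 fell (57.1%, against 16.2% of all genes and 30.0% of the abundant ones) and 0 were called higher by limma (0 also at an unadjusted p under 0.05, with DESeq2 and with edgeR), with a median log2 fold change of -0.46. HNRNPK, which binds the MYC promoter, fell most (-0.61, limma adjusted p = 4.51e-05), followed by the insulator protein CTCF (-0.58, limma adjusted p = 0.000562) and FUBP1, which binds the far upstream element of MYC (-0.48, limma adjusted p = 0.000198). IGF2BP1, which stabilizes MYC mRNA, had 2 reads in 1 control library and 0 in the other 5 libraries and was not tested.

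Genes that MYC is known to activate were mostly lower while MYC RNA was higher. The 59 genes of this kind are mainly of ribosome production, translation, nucleotide synthesis, replication and glycolysis. Of these 59, 35 fell (59.3%, against 16.2% of all genes and 30.0% of those that averaged 100 or more). Another 4 rose (6.78%, against 14.7% and 18.0%) and 20 did not pass. The median log2 fold change of the list was -0.31, against -0.08 over the genes that averaged 100 or more. The number that fell ran from 26 to 40 over the alternatives. The largest falls among abundant genes were those of MCM4 (4245 to 1799, log2 fold change -1.24, limma adjusted p = 1.94e-07) and MCM5 (-1.19, limma adjusted p = 6.11e-07), subunits of the replicative helicase, and of TCOF1, a nucleolar protein for ribosomal RNA transcription (-0.98, limma adjusted p = 8.07e-06).

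Other targets of the list are named here after their values were seen. The nucleolar protein NCL fell from 29860.1 ± 4119.9 to 16430.2 ± 262 (log2 fold change -0.85, limma adjusted p = 2.4e-05). ODC1, the rate-limiting enzyme of polyamine synthesis, fell from 4763 ± 122 to 3248 ± 127 (-0.55, limma adjusted p = 5.1e-05). CAD, which starts pyrimidine synthesis, had 3279.8 ± 459 and 3256 ± 29.2 (0.00, limma adjusted p = 0.992).

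The 4 activated genes that rose are also named after their values were seen. CCND2, a D-type cyclin, had 10.1, 4.46 and 8.56 in control and 52.4, 60.6 and 56.1 in low glucose (log2 fold change 2.78, limma adjusted p = 1.75e-05), from 4 to 9 and 53 to 74 reads. HK2, the hexokinase that starts glycolysis, rose from 1748 ± 251 to 2363 ± 90.3 (0.44, limma adjusted p = 0.0025). SLC29A2, a nucleoside transporter (0.48, limma adjusted p = 0.0103), and RABEPK (0.36, limma adjusted p = 0.016) were the others. With the control library of 9741183 reads left out, or the low-glucose one of 10595408, 2 rather than 4 genes passed upward, since SLC29A2 (adjusted p = 0.0516 and 0.0650) and RABEPK (0.0871 and 0.0770) were lost. RABEPK was also lost without the low-glucose library of 10841656 reads (adjusted p = 0.103).

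Activated genes with and without the E-box were set side by side. The E-box was in 26 of the 62 windows of this list (41.9%, against 7.26% of all windows), in 26 of the 48 genes with an entry. Of the 26 genes with CACGTG, 15 fell and 1 rose (median log2 fold change -0.33). Of the 22 without it, 13 fell and 1 rose (median -0.28). Over all tested genes, the 1482 with the motif had a median of 0.03 (18.2% higher, 21.8% lower) and the 10972 without it a median of 0.01 (16.5% higher, 20.7% lower).

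Genes that MYC represses were higher or did not pass. Of 9, CDKN2B had 0 reads in all libraries. Of the 8 tested, 4 rose (against 14.7% of all genes and 18.0% of the abundant ones). By limma 0 were called lower (1 at an unadjusted p under 0.05, 0 with DESeq2 and with edgeR). The median log2 fold change was 0.65, with PDGFRB among the 8 (1.52, limma adjusted p = 0.091, 0 to 9 reads per library). CDKN1C (0.16, limma adjusted p = 0.826) had 8 to 34 reads per library, and CEBPA had -0.15 (limma adjusted p = 0.294). NDRG2 and CEBPA were lower in every low-glucose library than in any control library. GADD45A, a growth arrest and DNA damage gene, rose from 608 ± 123 to 2377 ± 185 (1.98, limma adjusted p = 5.15e-08). NDRG1, a stress-responsive gene named for its repression by N-MYC, rose from 131 ± 16.5 to 395 ± 16.0 (1.59, limma adjusted p = 2.96e-07), the cyclin-dependent kinase inhibitor CDKN1A rose from 69.3 ± 17.9 to 132 ± 21.1 (0.94, limma adjusted p = 0.00239), and its relative CDKN1B rose from 628 ± 38.1 to 803 ± 26.3 (0.36, limma adjusted p = 0.00433). The related NDRG2 had -0.58 (limma adjusted p = 0.0654) and counted as lower without the control library of 10190154 reads (adjusted p = 0.0414) and with quantile normalization (adjusted p = 0.0179).

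**Figure D4:**
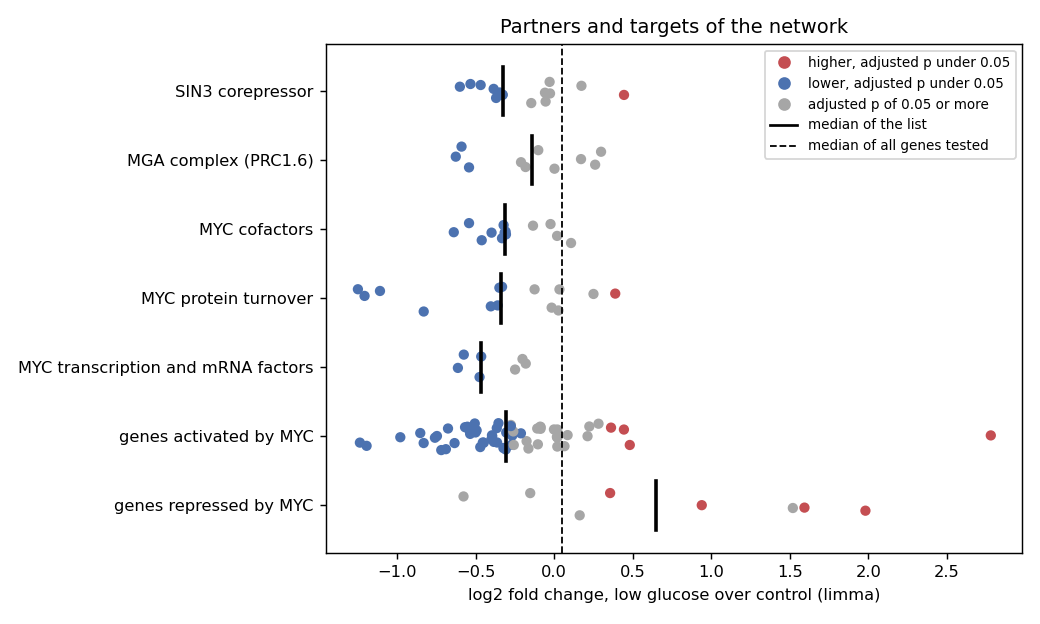
Log2 fold change of each tested gene (points, horizontal axis) in 7 lists of partners and targets of the network, colored by the limma call, with the median of each list as a bar and that of all tested genes (0.05) as a dashed line. The medians lie at -0.31 for the genes activated by MYC and at 0.65 for the 8 tested genes repressed by it. PDGFRB, with at most 9 reads per library, is among those 8.

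The genes whose pattern over the 6 libraries was nearest to that of MYC were ZNF354B, RPLP0, TCIRG1, NFKB2 and ZSCAN18, at a root mean square distance of 0.0290 to 0.0361 on the log2 scale, each gene centered on its own mean, among the 10148 other genes that averaged 100 or more. PVT1 was the 189th nearest of the 10148 and CASC11 the 399th. Of the members, MNT was the 1439th, MAX the 1979th, MXD4 the 5552nd and MXD3 the 5785th. MXD1 was the 6957th, MGA the 7870th and MXI1 the 8340th. The distance is not scaled to the size of a change. MXD1 and MXI1, which rose more than MYC, thus ranked behind MXD3 and MXD4, which did not rise. The 6 libraries behind this distance fall in 2 conditions.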

How the data were processed

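RNA-seq of MiaPaCa-2 cells was analyzed from 1 table. Per the labels and the methods, total RNA went into a strand-specific library, adapters were trimmed with Trim Galore, and reads were mapped to hg38 with STAR 2.7.0e and compared with DESeq2. RSEM is also named as software, without a stated role. The strand setting of the counting and the annotation are not given in the sources used here. The authors deposited a normalized signal, namely counts of reads per gene over 1 size factor for each library. Multiplied by that factor, 100% of values came out whole (tolerance 0.001 reads), and the factors matched median-of-ratios factors recomputed over 17906 genes, so reads could be recovered.

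Labels name the columns of 2 low-glucose libraries. The other 4 were grouped by the run of column names. The treatment field gives 2.5 mM glucose for all 6 samples, whereas the design text sets controls at 25 mM, and the titles say only control or low glucose. Gene names and positions came from Gencode 44 (99.5% of identifiers matched).

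Values of 21101 genes with a mean of at least 1 were tested as log2(value + 1) with limma 3.58.1 in R 4.3.3 (lmFit, eBayes with trend, two-sided, Benjamini-Hochberg, threshold 0.05). Fold changes on this scale understate those of low genes. On recovered reads edgeR 4.0.16 called 6554 genes and DESeq2 1.42.0 5486. The 3 libraries per condition limit precision, and an exact permutation test cannot go below 0.1, so none was run for 1 gene alone. TPM used canonical transcript lengths, and merged exon lengths after the data were seen.

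The members and lists were chosen with earlier results of these data known. Named are all members, the MLX arm, genes with a read whose exons overlap a member, the up to 3 called genes per list with the largest change, a mean of at least 100 and no overlap, and the 5 genes nearest to MYC. Other named genes are said to be so or stand for a list's role. Protein sequences and the promoter of MYC are not reported here.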

Additional observations from a re-analysis of the deposited data

How the results depend on the processing

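The direction of the members was stable in the alternatives run (library size, TMM and quantile scaling, no filter, a mean of at least 5, a pseudocount of 0.1, no variance trend, DESeq2, edgeR, each library left out), with 1 exception: MXD3 turned to 0.0125 with quantile normalization. The number of members past the threshold, 6, ran from 4 to 7. Of 510 values of 34 genes (the tested members, the MLX arm and the genes that the naming rule took from the lists), 473 kept their call, 34 lost it, 2 gained it and 1 reversed. FBXW7, RABEPK, SLC29A2, HK2, SIN3A, HDAC2, RBBP4, RBBP7 and VIM are not among the 34 and each lost its call in at least 1 alternative. Over all genes 6528 passed, against 4090 without a variance trend and 4319 to 7251 with a library left out, the lowest without the low-glucose library of 10841656 reads. Library size scaling turned the split from 3111 higher and 3417 lower to 3935 higher and 2647 lower, with the median of 13769 genes of mean 20 or more at 0.06 against -0.02. The cause was not tested. The counts of lower SIN3 genes (8) and cofactors (9) were 4 and 3 without a variance trend, and those of protein turnover genes (8) 5. No paired analysis was possible because replicate numbers are known for 2 of the 6 libraries, both of low glucose. Depth limits MYCL, with 22 to 61 reads, and MYCN, with 0.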
